A study of Canis lupus familiaris with 12 samples.

Results

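The genes described here are those that mark endothelial cells, the lining of blood vessels, of the heart chambers and of the valve leaflets, measured in healthy dogs and in dogs whose mitral valve had degenerated (degenerative mitral valve disease, DMVD). They were chosen by name from a list of 9 symbols: EMCN, ROBO4, SOX17, CDH5, TEK, TIE1, KDR, ERG and PECAM1. Of the 24223 genes listed for each tissue, 7 carried one of these names, and all 7 were tested in both tissues. No row carried the name KDR or PECAM1, and these genes were not analysed here. None of the 7 shared its listed locus with another gene.

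In DMVD the mitral leaflets thicken and no longer close fully, so that blood regurgitates into the atrium. RNA sequencing had been run on 12 libraries of left ventricle and mitral valve from 8 dogs, 4 with DMVD and 4 healthy controls. The DMVD ventricle group was 2 dogs, a Jack Russell Terrier (5 years old) and a Pomeranian (9 years old). Its control group was 4 dogs, a Beagle (8 years old) and 3 Hound mixes (3 years old). The DMVD valve group was 3 dogs, the Pomeranian and Beagles aged 16 and 17 years, and its control group was 3 dogs, the control Beagle and 2 of the Hound mixes. By matching dog number, breed and age, 1 DMVD dog and 3 control dogs gave both tissues. The labels name no treatment of these dogs. Diagnosis cannot be told apart from breed and age, since the DMVD groups held no Hound mix and the control groups no dog over 8 years.

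Endothelial cells keep their character through a small set of transcription factors, junction proteins and receptors. ERG, an ETS-family factor, and SOX17, a SOXF-family factor best known in arteries and endocardium, act in the nucleus. CDH5 is VE-cadherin, the adhesion protein of the junctions between endothelial cells, and EMCN is endomucin, a heavily glycosylated surface protein of capillary and venous endothelium that hinders leukocyte attachment. TEK, also called TIE2, is the receptor of the angiopoietins, TIE1 is its partner receptor, and ROBO4 is the endothelial member of the Roundabout family, known for stabilising vessels. In the heart these genes are read in capillaries, larger vessels, endocardium and the surface layer of the valve.

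All 7 genes had a higher value in DMVD than in control in both tissues, but few of these differences passed the test. SOX17 and ROBO4 rose in the ventricle, 4.86-fold and 3.20-fold. EMCN rose in the valve, 5.17-fold. CDH5, TIE1 and ERG, which mark the same cells, differed by 1.16 to 1.44-fold and did not pass in either tissue. The summed value of the 7 genes was 95.7 in DMVD and 49.8 in control ventricle, and 73.9 in DMVD and 33.5 in control valve. These sums are in FPKM, fragments scaled to transcript length and library size. More endothelial cells and more RNA of these genes per cell cannot be told apart in such bulk tissue.

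Each value below is the authors' single value for a group, so neither the spread between dogs nor the depth of a library can be given. The SE beside a log2 fold change (DMVD over control) is the one implied by the authors' own test statistic. An adjusted p is the authors' p after Benjamini-Hochberg adjustment over all tested genes of the tissue, and a gene passed when it was under 0.05.

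**Figure D1:**
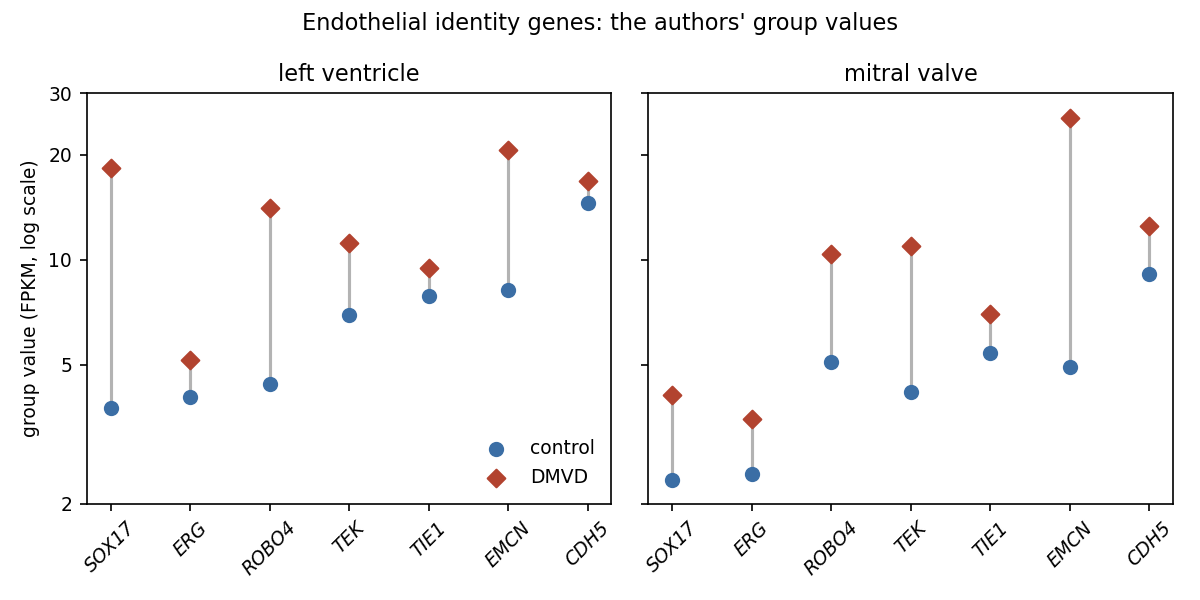
Group values of the 7 endothelial identity genes in FPKM on a log axis, left ventricle on the left and mitral valve on the right, with circles for control, diamonds for DMVD and a line joining them. Every diamond lies above its circle; the longest lines are those of SOX17 in the ventricle (3.77 to 18.3 FPKM) and EMCN in the valve (4.93 to 25.5 FPKM).

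Of the transcription factors, SOX17 lies on chromosome 29 from 5979002 to 5981701 of CanFam3.1 (ENSCAFG00000025327). It stood at 18.3 FPKM in DMVD and 3.77 FPKM in control ventricle. The log2 fold change was 2.28 ± 0.47 (SE), with a 95% interval of 1.36 to 3.21 and an adjusted p of 0.000163, the 108th smallest p of 13788 genes. SOX17 moved from the lowest of the 7 genes in control ventricle to the next to highest in DMVD ventricle. The valve values were 4.10 FPKM in DMVD and 2.35 FPKM in control, a log2 fold change of 0.81 ± 0.67 with an adjusted p of 1.0. The interval of that valve difference, −0.50 to 2.12, holds both no change and a change of more than 4-fold.

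ERG, on chromosome 31 from 33458358 to 33632213 (ENSCAFG00000009912), had values much closer together. It stood at 5.17 FPKM in DMVD and 4.06 FPKM in control ventricle, a log2 fold change of 0.35 ± 0.50 with an adjusted p of 0.966. The valve gave 3.50 FPKM in DMVD and 2.43 FPKM in control, a log2 fold change of 0.53 ± 0.69 with an adjusted p of 1.0. ERG was the lowest or next to lowest of the 7 genes in every group. At its SE, an observed log2 fold change of 1.59 in the ventricle or 2.57 in the valve would have been needed to pass. Not passing therefore does not show that ERG was unchanged.

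Of the receptors, ROBO4 lies on chromosome 5 from 9547046 to 9561375 (ENSCAFG00000011022). Its ventricle values were 14.1 FPKM in DMVD and 4.40 FPKM in control, a log2 fold change of 1.68 ± 0.43 with a 95% interval of 0.84 to 2.52 and an adjusted p of 0.00565. In the valve it stood at 10.4 FPKM in DMVD and 5.10 FPKM in control, a log2 fold change of 1.02 ± 0.46 that did not pass, with an adjusted p of 0.883. The unadjusted p of that valve difference is 0.0269 in the authors' deposited table.

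TEK, on chromosome 11 from 45278262 to 45376504 (ENSCAFG00000001713), did not pass in either tissue. It stood at 11.2 FPKM in DMVD and 6.94 FPKM in control ventricle, a log2 fold change of 0.68 ± 0.41 with an adjusted p of 0.593. In the valve the values were 10.9 FPKM in DMVD and 4.19 FPKM in control, a log2 fold change of 1.39 ± 0.47 with a 95% interval of 0.46 to 2.31. That valve difference has an unadjusted p of 0.00338 in the authors' deposited table and an adjusted p of 0.295.

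TIE1, the partner of TEK, lies on chromosome 15 from 16838000 to 16857488 (ENSCAFG00000005288) and had smaller differences. The ventricle values were 9.50 FPKM in DMVD and 7.87 FPKM in control, a log2 fold change of 0.27 ± 0.41 with a 95% interval of −0.54 to 1.08. The valve values were 6.99 FPKM in DMVD and 5.40 FPKM in control, a log2 fold change of 0.37 ± 0.45 with an interval of −0.51 to 1.26. Both intervals hold no change, and both reach past a doubling; the difference between TEK and TIE1 itself was not tested.

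Of the surface and junction proteins, EMCN lies on chromosome 32 from 22223491 to 22320300 (ENSCAFG00000032716). Its valve values were 25.5 FPKM in DMVD and 4.93 FPKM in control, the highest of the 7 genes in DMVD valve and the fourth highest in control valve. The log2 fold change was 2.37 ± 0.53, with a 95% interval of 1.33 to 3.41 and an adjusted p of 0.00574, the 19th smallest p of 14810 genes. In the ventricle EMCN stood at 20.6 FPKM in DMVD and 8.19 FPKM in control. That log2 fold change of 1.33 ± 0.45 did not pass, with an adjusted p of 0.0771 and an unadjusted p of 0.00282 in the authors' deposited table. A change of 1.41 would have been needed at that SE.

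CDH5, on chromosome 5 from 82831938 to 82864030 (ENSCAFG00000020413), was the highest of the 7 genes in both control groups and differed little. Its ventricle values were 16.9 FPKM in DMVD and 14.6 FPKM in control, a log2 fold change of 0.21 ± 0.48 with a 95% interval of −0.73 to 1.15. The valve values were 12.5 FPKM in DMVD and 9.11 FPKM in control, a log2 fold change of 0.45 ± 0.53 with an interval of −0.58 to 1.49. The adjusted p was 1.0 in both tissues.

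**Figure D2:**
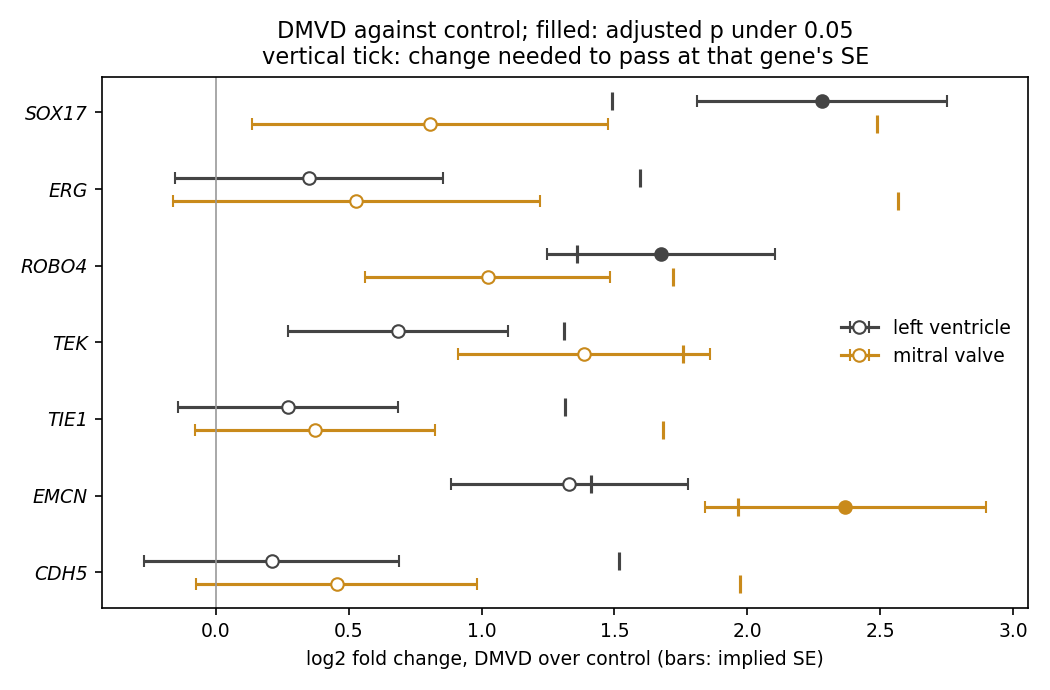
Log2 fold change of DMVD over control for each gene (points), with the implied SE as bars, in the left ventricle (dark) and the mitral valve (ochre); filled points passed at an adjusted p under 0.05, hollow ones did not, and the vertical ticks mark the change needed to pass at that gene's SE. SOX17 (2.28) and ROBO4 (1.68) in the ventricle and EMCN (2.37) in the valve lie beyond their ticks, and all other points lie short of theirs.

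Against the whole tables, 2 of 7 genes passed in the ventricle, where 3.08% of tested genes passed, 1.92% as higher and 1.16% as lower in DMVD. In the valve 1 of 7 passed, where 0.419% of tested genes passed, 0.311% as higher and 0.108% as lower. An unadjusted p under 0.05 was given to 3 of 7 genes in the ventricle (EMCN, ROBO4 and SOX17), where 11.3% of tested genes had one. The same held for 3 of 7 in the valve (EMCN, ROBO4 and TEK), where 4.2% of tested genes had one. All 7 values were higher in DMVD in each tissue, while 46.8% of tested genes were higher in the ventricle and 54.9% in the valve. The median log2 fold change of the 7 genes was 0.68 in the ventricle and 0.81 in the valve, and that of all tested genes was −0.04 and 0.05. With 7 genes from cells of the same kind, these counts describe the tables and are not independent of each other. The genes were also chosen with earlier results of these data known. Under Bonferroni adjustment ROBO4 no longer passed in the ventricle, and EMCN no longer passed in the valve, with an adjusted p of 0.109.

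The make-up of the summed level differed between DMVD and control. CDH5 held 29.3% of the summed FPKM in control ventricle and 17.6% in DMVD ventricle, and 27.2% and 16.9% in control and DMVD valve. SOX17 held 7.57% of the sum in control ventricle and 19.2% in DMVD ventricle, but 7.0% and 5.55% in control and DMVD valve. EMCN held 14.7% of the sum in control valve and 34.5% in DMVD valve, and 16.4% and 21.5% in control and DMVD ventricle. The share of ERG was lower in DMVD than in control in both tissues, at 5.40% against 8.14% in the ventricle and 4.74% against 7.24% in the valve. TIE1 likewise held 9.93% against 15.8% in the ventricle and 9.46% against 16.1% in the valve. Relative to CDH5, the log2 fold change was 2.07 for SOX17 and 1.47 for ROBO4 in the ventricle, and 1.92 for EMCN in the valve. Shares are parts of a whole, so a larger share of some genes lowers that of the others. The FPKM values of CDH5, ERG and TIE1 were themselves higher in DMVD in both tissues. Shares carry no error here, since the tables hold 1 value per group.

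**Figure D3:**
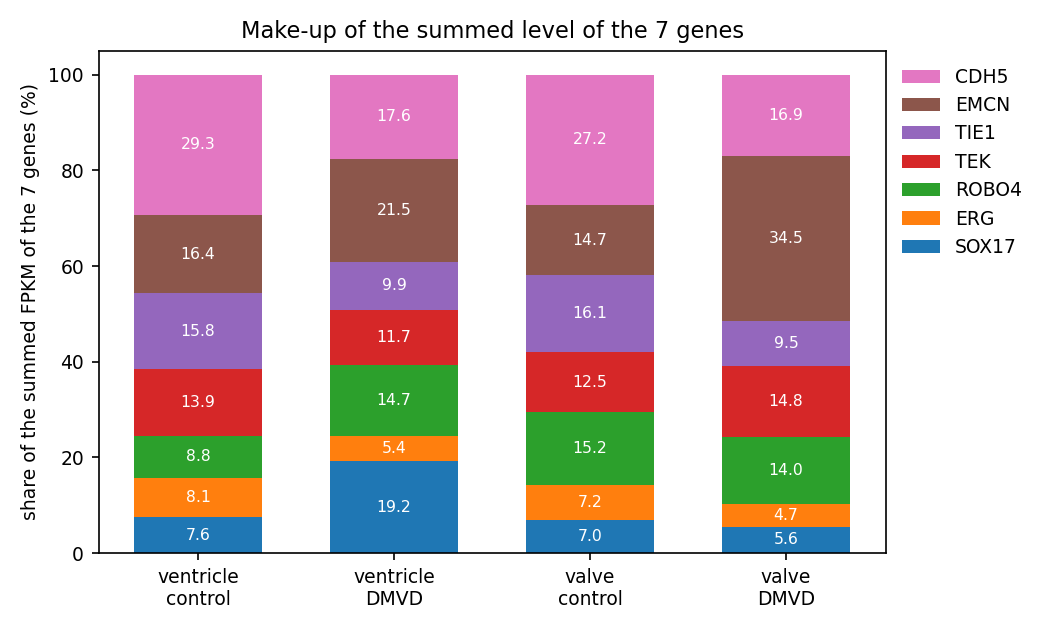
Share of the summed FPKM of the 7 genes held by each gene, in percent, stacked for the control and DMVD groups of each tissue. CDH5 is the largest block in both control groups (29.3% and 27.2%), and EMCN is the largest in both DMVD groups (21.5% and 34.5%).

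The order of the levels also differed between the groups. In control ventricle it ran from CDH5 at 14.6 FPKM through EMCN, TIE1, TEK, ROBO4 and ERG to SOX17 at 3.77 FPKM. In DMVD ventricle it ran from EMCN at 20.6 FPKM through SOX17, CDH5, ROBO4, TEK and TIE1 to ERG at 5.17 FPKM. Control valve ran from CDH5 at 9.11 FPKM through TIE1, ROBO4, EMCN, TEK and ERG to SOX17 at 2.35 FPKM. DMVD valve ran from EMCN at 25.5 FPKM through CDH5, TEK, ROBO4, TIE1 and SOX17 to ERG at 3.50 FPKM. Without values per dog, neighbours in these orders could not be set against their spread.

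Between tissues, SOX17 and EMCN showed the widest gaps in the DMVD effect, in opposite directions, and neither gap passed. The effect on SOX17 was smaller in the valve than in the ventricle by 1.48 on the log2 scale, with values of 0.81 against 2.28 (SE of the difference 0.82, 95% interval −3.08 to 0.13, p 0.0712). The effect on EMCN was larger in the valve by 1.04 (SE 0.69, interval −0.32 to 2.39, p 0.133). ROBO4 had the smaller effect in the valve, by 0.65 (SE 0.63), and TEK the larger, by 0.70 (SE 0.63). For CDH5, TIE1 and ERG the gaps were 0.24, 0.10 and 0.18. None of the 7 had an unadjusted p under 0.05 in this normal test of the difference, and every adjusted p was 1.0. Over the 13099 genes compared, 0.107% passed and 2.66% had an unadjusted p under 0.05. The test treats the tissues as independent although 4 dogs gave both. That SOX17 and ROBO4 passed in the ventricle alone, and EMCN in the valve alone, is therefore not shown to be a difference between the tissues.

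The tables were normalised separately, so levels across tissues are set side by side only. In control dogs 6 of the 7 genes were lower in valve than in ventricle, with log2 ratios from −0.74 for ERG to −0.54 for TIE1. ROBO4 was the exception, at 0.21. The median was −0.69, while the median over the 11498 genes above 1 FPKM in both control groups was 0.31. In DMVD dogs the median over the 7 genes was −0.44, with EMCN at 0.31 and SOX17 at −2.16, beside a median of 0.34 over 11178 genes.

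Of 161 other genes in 8 lists by endothelial role, 138 were found in the tables by name. The lists include ligands, such as PGF, and genes that other cells also make, such as POSTN. Among the 127 tested in the ventricle 13 rose and 4 fell, while 110 did not pass, and the median log2 fold change was 0.05. That is 13.4% passing, beside 3.08% of all tested genes. Of the 135 tested in the valve, 5 rose and 130 did not pass; the median was 0.39, and 101 values were higher in DMVD. That is 3.70% passing, beside 0.419% of all tested genes. The lists were chosen with earlier results of these data known, so these shares are descriptions only. No valve gene of these lists fell by the adjusted p, and 2 were lower with an unadjusted p under 0.05.

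Among 17 further endothelial transcription factors tested in the ventricle, only ETS2, an ETS-family factor, passed. It rose from 7.22 to 25.9 FPKM (log2 fold change 1.84 ± 0.42, adjusted p 0.000973). The list's median was −0.15 in the ventricle, and 0.65 in the valve, where none of 19 passed and 5 were higher with an unadjusted p under 0.05. Of 17 angiopoietin and VEGF ligands and co-receptors, PGF, placental growth factor, rose in the ventricle from 1.06 to 5.18 FPKM (2.28 ± 0.54, adjusted p 0.00171). ANGPTL1, an angiopoietin-related protein, fell there from 1.84 to 0.255 FPKM (−2.85 ± 0.90, adjusted p 0.0488), and its listed locus is shared with another gene. None of the 17 passed in the valve, by adjusted or unadjusted p, and the list's medians were −0.17 and 0.28.

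None of the Slit, Robo and other guidance genes passed, out of 9 tested in the ventricle and 11 in the valve, with medians of −0.51 and 0.18. By unadjusted p, 1 was lower in the ventricle and none differed in the valve. The smallest p among them in the ventricle was that of PLXND1, a semaphorin receptor (log2 fold change −1.32 ± 0.43, adjusted p 0.0664). In the valve it was that of EPHB4, a venous ephrin receptor whose listed locus is shared (0.90 ± 0.47, adjusted p 1.0).

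Among 26 junction and surface genes, 3 rose in the ventricle and 1 in the valve. SELP, P-selectin, which tethers leukocytes and is also carried by platelets, rose from 0.173 to 1.48 FPKM in the ventricle (3.09 ± 0.67, adjusted p 0.00045). In the valve it rose from 1.01 to 12.8 FPKM (3.67 ± 0.62, adjusted p 8.61e-06). ICAM1, a leukocyte adhesion molecule that other cells can also make, rose in the ventricle (2.38 ± 0.47, adjusted p 6.78e-05) and did not pass in the valve (1.67 ± 0.47, adjusted p 0.0715). LYVE1, known from lymphatic endothelium and some macrophages, rose in the ventricle (2.08 ± 0.47, adjusted p 0.000811), with 1.78 ± 0.49 and an adjusted p of 0.0562 in the valve. The list's medians were 0.14 and 0.46.

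Of 28 signalling and vascular tone genes, 5 rose and 1 fell in the ventricle, and 2 rose in the valve, with medians of 0.15 and 0.51. EDNRB, an endothelin receptor, rose in the ventricle (1.87 ± 0.42, adjusted p 0.000796), as did the vasodilator peptide gene ADM (1.72 ± 0.43, adjusted p 0.00464). S1PR1, a receptor for the lipid sphingosine phosphate, rose there from 12.7 to 39.0 FPKM (1.62 ± 0.44, adjusted p 0.0108). VWF, which encodes von Willebrand factor, stood at 79.5 against 23.0 FPKM there (1.79 ± 0.49, adjusted p 0.0126). It is named as a classical endothelial marker, outside the rule for named genes and with its values known. In the valve VWF stood at 38.1 against 15.0 FPKM and did not pass (1.35 ± 0.73, unadjusted p 0.067). THBD, the anticoagulant receptor thrombomodulin, rose in the ventricle (1.46 ± 0.46, adjusted p 0.0477) and in the valve (2.34 ± 0.54, adjusted p 0.00889). PROCR, the endothelial protein C receptor, rose in the valve from 12.6 to 55.9 FPKM (2.15 ± 0.55, adjusted p 0.0276), beside 4.89 and 4.95 FPKM in control and DMVD ventricle. APLNR, the apelin receptor, fell in the ventricle from 7.15 to 0.777 FPKM (−3.20 ± 0.67, adjusted p 0.000212).

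The capillary and lipid uptake genes had medians of −0.47 in the ventricle and 0.04 in the valve, and 2 of 11 passed, both in the ventricle and in opposite directions. CA4, a carbonic anhydrase of capillary endothelium, rose from 13.4 to 73.7 FPKM (2.46 ± 0.43, adjusted p 2.92e-06). TCF15, a transcription factor known from heart capillary endothelium, fell from 12.7 to 2.69 FPKM (−2.24 ± 0.50, adjusted p 0.000634). Among arterial, venous and lymphatic genes, with medians of −0.31 and 0.49, DARC, a chemokine-binding protein of venules and red cells, rose in the ventricle (3.87 ± 0.76, adjusted p 5.62e-05), and its locus is shared. SEMA3G, an arterial semaphorin, fell there (−2.22 ± 0.57, adjusted p 0.00561), as did APLNR, which is also in this list. In the valve PDPN, podoplanin, rose from 7.57 to 31.2 FPKM (2.04 ± 0.48, adjusted p 0.00889). RELN, reelin, whose locus is shared and which was not tested in the ventricle, rose in the valve too (2.21 ± 0.51, adjusted p 0.00889). In this list 11 of 17 tested values were higher in DMVD valve, and 6 of 16 in DMVD ventricle. PROX1, FLT4 and CCL21, named here outside the rule for named genes, were lower in DMVD in both tissues without passing. Their valve log2 fold changes were −0.36 ± 0.66, −0.30 ± 0.52 and −2.61 ± 1.86. Other genes of this list went the other way. STAB1, also named outside the rule, was higher in the valve without passing (1.63 ± 0.51, adjusted p 0.165). In the ventricle STAB1 was lower (−0.38 ± 0.46) and PDPN higher (1.72 ± 0.91), and neither passed. Of the endocardial and valve endothelial genes POSTN, the matrix protein periostin, which fibroblasts and valve interstitial cells also make, rose in the ventricle from 0.453 to 5.63 FPKM (3.64 ± 0.99, adjusted p 0.0115). Its valve values of 685 and 245 FPKM did not pass (1.49 ± 2.52), and the list's medians were 0.19 and 0.27.

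Several of these genes are low in one group, and adding 1 FPKM to both groups moved their log2 fold changes by more than the SE. In the ventricle SELP became 1.08, ANGPTL1 −1.18, SEMA3G −1.36 and POSTN 2.19. APLNR became −2.20, DARC 2.67 and PGF 1.58 there. In the valve RELN became 1.42 and SELP 2.78. The ventricle call of ANGPTL1 also ended when fold changes were centred on the median gene.

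**Figure D4:**
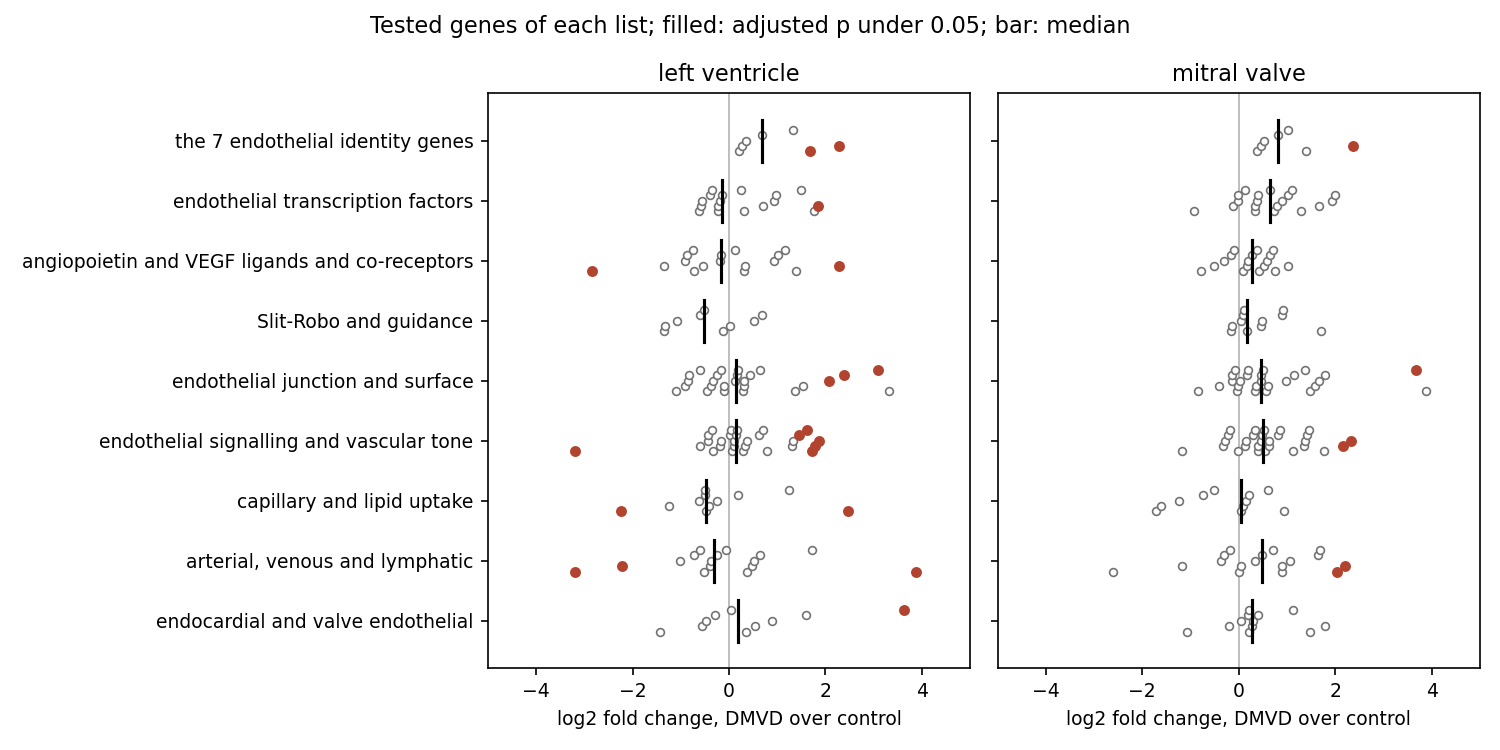
Log2 fold change of DMVD over control for every tested gene of the 7 endothelial identity genes and of the 8 lists by endothelial role. The left ventricle is on the left and the mitral valve on the right. Filled points passed, hollow ones did not, and bars mark list medians. In the valve 1 gene with a control value near 0 lies off the axis (NRG1). The 7 genes lie to the right of 0 in both panels, with medians of 0.68 in the ventricle and 0.81 in the valve. The medians of the other lists run from −0.51 to 0.19 in the ventricle and are also above 0 in the valve, from 0.04 to 0.65.

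Several neutrophil, red cell and immediate early genes rose in DMVD ventricle. All 6 tested neutrophil markers rose in the ventricle, where the list summed to 379 FPKM in DMVD and 14.3 FPKM in control. Among them were S100A8, S100A9, S100A12, CSF3R and MMP8, with log2 fold changes from 3.40 for CSF3R to 7.34 for MMP8, which was near 0 in control. With 1 FPKM added to both groups these became 1.36 and 1.30. In the valve 1 of 5 rose (S100A9), with sums of 44.3 and 8.83 FPKM. That call ended on median centring (adjusted p 0.0538), and its log2 fold change of 3.62 became 1.77 with 1 FPKM added. Of the red cell markers HBA, HBM, AHSP and ALAS2, 4 of 5 tested, rose in the ventricle, with sums of 3606 and 62.6 FPKM, and HBA alone, 1 of 4, rose in the valve, with sums of 608 and 35.8 FPKM. Macrophage and monocyte markers summed to 73.8 against 29.6 FPKM in the ventricle and 212 against 68.1 FPKM in the valve, and 1 of 6 rose in each (C1QB). Immediate early genes, which respond quickly to stimulation and to tissue handling, summed to 539 against 181 FPKM in the ventricle, where 6 of 14 rose: JUNB, MYC, ZFP36, EGR1, IER3 and NR4A1, by log2 fold changes of 1.60 to 2.97. In the valve the sums were 794 and 439.8 FPKM, and none of 13 passed, with 3 higher by an unadjusted p under 0.05. The part of these cells and states in the results for SOX17, ROBO4 and EMCN was not tested. The listed loci of HBM, ALAS2 and JUNB are shared with other genes.

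Markers of the other cell types of the heart showed few calls. Platelet markers summed to 73.4 against 61.6 FPKM in the ventricle, of which TUBB1 alone held 70.8 and 59.2. In the valve they summed to 27.9 against 36.5 FPKM, of which TUBB1 held 21.9 and 33.5. The listed locus of TUBB1 is shared with another gene. Of the 4 platelet markers tested in the valve, 3 were higher and 1 lower in DMVD. None of the platelet markers passed. Their smallest p were those of PPBP (2.60 ± 0.81) and ITGA2B (1.39 ± 0.83) in the valve. Pericyte markers, which lie beside endothelium on capillaries, summed to 91.0 against 132 FPKM in the ventricle, with all 8 tested values lower in DMVD, and to 100.4 against 123 FPKM in the valve. None of the pericyte markers passed. Their smallest p belonged to NOTCH3 in the ventricle (−1.46 ± 0.47, adjusted p 0.0579) and ANPEP in the valve (2.02 ± 0.57, adjusted p 0.0761).

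Heart muscle transcripts were present in both tissues. The cardiomyocyte markers summed to 34466 FPKM in DMVD and 38903 FPKM in control ventricle, with none of 7 passing. MYH7 is left out of the ventricle sums, since it was not tested there and its control value is listed at 0. They summed to 11447 FPKM in DMVD and 23243 FPKM in control valve, where MYL3, a myosin light chain, fell (−5.19 ± 0.68, adjusted p 2.64e-10) and the other 7 did not pass. Fibroblast and valve interstitial markers summed to 2324 against 2053 FPKM in the valve and 400.3 against 389 FPKM in the ventricle. None of them passed, the smallest p being those of COL1A2 in the ventricle (−0.47 ± 0.43) and TCF21 in the valve (0.67 ± 0.70). Among smooth muscle markers none passed either, with TAGLN at 1.27 ± 0.44 in the ventricle and ACTA2 at 1.24 ± 0.54 in the valve. Lymphocyte markers summed to 5.99 FPKM or less in every group and none passed. CD79B, with the ventricle value nearest to passing, had an adjusted p of 0.317, and GZMB and CD79B were listed at 0 in control valve. Mesothelial markers summed to 4.42 FPKM or less and none passed, with UPK1B at 5.34 ± 1.51 and WT1 at 0.88 ± 0.78 in the valve. The part of these cell types in the results for the 7 genes was not tested.

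The genes closest to the median profile of the 7 were found by Euclidean distance over the 4 group values, as log2(FPKM + 0.1) less each gene's mean, among 9412 candidates. They were NEAT1_1 at a distance of 0.152, ZNF366 at 0.170, a pair of rows named RPL31 at 0.179 and 0.181, and PNO1 at 0.191. None of these passed in either tissue. NEAT1_1 is part of a long nuclear RNA, ZNF366 encodes a zinc finger protein, RPL31 a ribosomal protein with near-identical copies whose reads may be split, and PNO1 a factor of ribosome assembly. Of the 7 genes themselves, ERG (0.301), TIE1 (0.334) and CDH5 (0.362) lay nearest to their shared median, with 31, 46 and 68 candidates closer. EMCN at 1.40 and SOX17 at 1.45 lay farthest, with 5833 and 6136 candidates closer. The distance also takes in level differences between the tissues, whose tables were normalised separately. With 4 values per profile, likeness of this kind is a description of these group values.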

How the data were processed

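RNA sequencing of 12 libraries was compared by diagnosis within each tissue, 2 DMVD against 4 control dogs for left ventricle and 3 against 3 for mitral valve, with groups from the labels. Per the submitters' processing notes, cutadapt, Bowtie, TopHat and the build CanFam3.1 were used, without versions. The tool for the step from reads to gene values was not given in the sources used here. Per tissue, the authors' deposited table holds 1 value per group and gene, read as FPKM from the column layout, a test statistic, a score whose sign is opposite to the deposited log2 fold change, and an unadjusted p-value. The authors' deposited log2 fold change column was used only for its sign. All of these are group values, so library depth is unknown and values per dog were not used.

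DMVD over control was recomputed as a log2 fold change, and the SE was taken as its size divided by the statistic. The deposited p-value matched a two-sided normal p to within 2.84e-06. Benjamini-Hochberg adjustment ran over the 13788 tested ventricle and 14810 tested valve genes. Effects in valve and ventricle were compared by a two-sided normal test over 13099 genes. The design allowed limma had there been values per library; the authors' test was used. Where 1 group was listed at 0 (337 ventricle and 333 valve genes), the p was kept without a fold change.

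The 9 genes and the lists (8 by endothelial role, 11 of other cell types or states) were chosen with earlier results of these data known. Named were the 9 genes, every other listed gene that passed (at most 6 per list, by p), 2 per list where none passed, and the 5 nearest profiles; a listed marker gene that the rule names is not reported here. UniProt names of 9 genes were translated. Alternatives were other adjustments, a filter at a mean of 1 FPKM, median centring, a threshold of 0.1 and pseudocounts of 1 and 0.1 FPKM. The calculations were tested on simulated data and used pandas 2.3.3, numpy 2.4.6 and scipy 1.17.1 under Python 3.11.15, with figures by matplotlib 3.10.9.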

Additional observations from a re-analysis of the deposited data

Results flagged for a closer look

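The cardiomyocyte marker MYL3 was picked out because its DMVD effect differed between the tissues in the test of the difference itself. The valve effect was below the ventricle effect by a log2 difference of −5.12, with an adjusted p of 0.00037. Its valve values were 36.6 FPKM in DMVD and 1335 FPKM in control, and its log2 fold change in the ventricle was −0.07 ± 0.67. None of the 7 endothelial identity genes was picked out in this way.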

How the results depend on the processing

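For the 7 endothelial identity genes, 65 of 70 recomputed tests kept their direction and their side of the threshold, 4 lost the call and 1 gained it. Another 28 values, with a pseudocount and no test, moved by less than the SE, and none reversed. The 2 ventricle calls became 1 under Bonferroni and 1 under Holm adjustment (SOX17 left), and 3 at a threshold of 0.1, which added EMCN. The 1 valve call, EMCN, became 0 under Bonferroni and Holm alike, with an adjusted p of 0.109 under each; the unadjusted p was under 0.05 for 3 of the 7. A filter at a mean of 1 FPKM and median centring kept 2 and 1 calls. The median control valve to ventricle log2 ratio of −0.69 became −1.0 less the median of all genes and −0.56 with 1 FPKM added. Over all genes, Bonferroni and Holm left 127 of 425 ventricle and 14 of 62 valve calls. For other named genes 48 of 207 tests lost the call, 19 of 84 values without a test moved by more than the SE, and none reversed. No paired analysis was possible because the tables hold group values only. Leaving out each replicate in turn could not be run for the same reason, so the weight of any 1 dog is unknown. The observed change needed to pass rests on the implied SE.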

Other observations

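The tables also show which genes lie beside the endothelial identity genes, a look chosen after the values were seen. Within 300 kb of the 7 genes there were 67 rows, of which 36 were tested in the ventricle with 1 passing and 40 in the valve with none passing. Over all tested genes 3.08% passed in the ventricle and 0.419% in the valve. By unadjusted p under 0.05 the count was 1 in each tissue, beside 11.3% and 4.2% of all tested genes. The ventricle gene that passed was ETS2, which lies 215 kb from ERG on the same chromosome. ROBO3, an axon guidance receptor, lies 1.64 kb from ROBO4 and did not pass in the ventricle (log2 fold change 0.68 ± 0.61, adjusted p 0.847). ESAM, an endothelial adhesion molecule whose listed locus is shared with another gene, lies 97.5 kb from ROBO4. It stood at 31.5 FPKM in DMVD and 20.1 FPKM in control ventricle (0.64 ± 0.44). DDIT4L, at 155 kb from EMCN, had log2 fold changes of 0.16 in the ventricle and −0.30 in the valve. MRPL15, at 268 kb from SOX17, had values of 0.09 and −0.38. ROBO4 and CDH5 are both on chromosome 5 but lie 73.3 Mb apart.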
